A study of Mus musculus with 6 samples.

Results

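The comparison set mouse embryonic stem cells of the RW4 line given 4-hydroxytamoxifen (4OHT) against the same line given no drug, on the 4 arrays of these groups out of 6 in the series. Members were all probe sets of the deposited log2 table with exactly 1 gene symbol, 21789 of 35556. The series measured RNA on single-colour Affymetrix arrays and asks what effect the inducer drugs 4OHT and Shld1 have on these cells. Untreated RW4 cells (agent none, induction system WT) gave 2 arrays, and RW4 cells with 1 µM 4OHT (induction system ERT2) gave 2. Another 2 arrays came from RW4 cells with 1 µM Shld1 (induction system FKBP) and entered the fit only to help estimate the spread. Cells of every group grew without feeder cells named in the labels, on gelatin, with calf serum at 10%, fetal bovine serum at 10% and leukemia inhibitory factor at 1000 U/mL. Neither a vehicle control, nor the hours of exposure, nor an ERT2 fusion carried by the treated cells is stated in the sources used here. If the treated cells did carry a fusion, drug and construct cannot be told apart. The 2 arrays of a group are called duplicates with no word on separate cultures, so p-values here reflect how far such duplicates scatter, and that scatter may be technical alone.

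4-Hydroxytamoxifen is the active metabolite of tamoxifen and binds estrogen receptors, on which it acts as an antagonist or a partial agonist depending on the tissue. ERT2 is a mutated ligand-binding domain of the human estrogen receptor that no longer responds to estradiol, and a protein fused to it enters the nucleus when 4OHT is added. Tamoxifen and its metabolites are also known to bind sterol-processing enzymes of cholesterol synthesis, among them the products of Ebp and Dhcr7. Mouse embryonic stem cells kept with leukemia inhibitory factor hold a network of transcription factors led by Oct4 (Pou5f1), Sox2 and Nanog.

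The labelled cell type was borne out by its defining markers. On the scale of log2 signal, Pou5f1 read 10.36 and 10.43 on the untreated arrays and 10.38 and 10.45 on the 4OHT arrays. Sox2 read 10.63 and 10.65 without the drug and 10.80 and 10.64 with it, and Nanog read 10.89 and 10.94 without and 10.83 and 10.95 with it. The groups overlapped at each of these 3 genes. Of the 10 embryonic stem cell markers, 5 were lower and 5 higher with 4OHT, with a median difference of 0.00. Of the markers of other cell types, some lay above a mean log2 signal of 5, the level below which differences are not given a size here. Above it were 2 of 10 measured fibroblast markers (Thy1 and Col1a1), 3 of 7 primitive endoderm markers (Gata6, Gata4 and Dab2), 3 of 8 trophoblast markers (Tfap2c, Krt18 and Krt8), 3 of 5 neural markers (Tubb3, Pax6 and Sox1) and 0 of 5 mesoderm markers. Among these 11, Tubb3, a neuronal tubulin, differed most in its moderated statistic, with 8.66 and 8.38 untreated against 8.18 and 8.06 with 4OHT. Germ cell markers, of which 5 of 7 also lay above 5, are described further down.

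The 2 untreated arrays were closer to each other than the 2 arrays of 4OHT-treated cells were. Of the 9686 probe sets with a mean above 5, the untreated arrays differed by 1.5-fold or more at 55 and the 4OHT arrays at 218. Array SDs over all probe sets ran from 2.24 to 2.35. The first 4OHT array had one of the 2 narrower ranges (SD 2.29), and it stood further from the untreated arrays than the second. Untreated replicate 1 differed from 4OHT replicate 1 at 286 probe sets, 222 of them lower on the 4OHT array, but from 4OHT replicate 2 at 83, with 40 lower. Set against untreated replicate 2 the counts were 364 and 94.

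**Figure D1:**
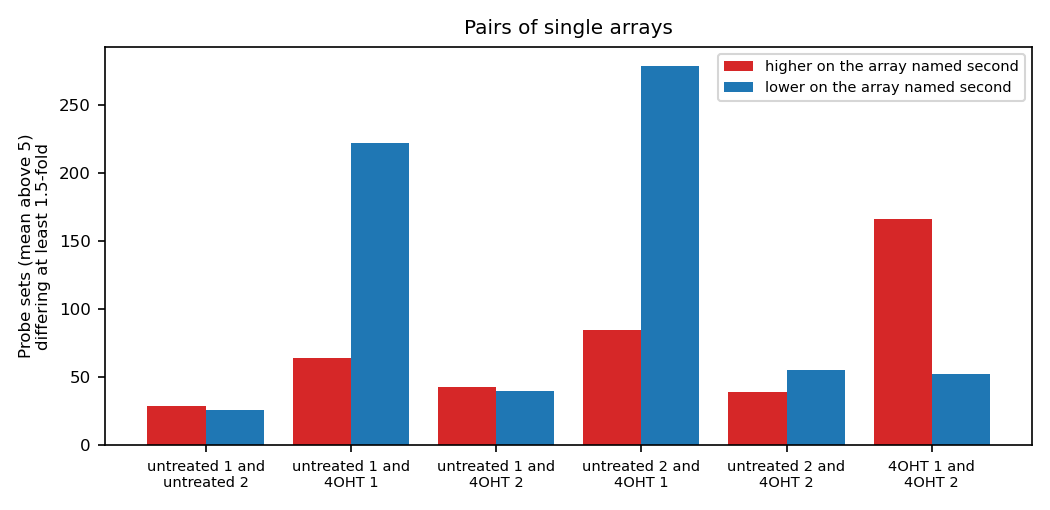
Probe sets with a mean log2 signal above 5 that differed by at least 1.5-fold between 2 single arrays. The vertical axis counts probe sets and the pairs of bars split them into those higher (red) and lower (blue) on the array named second. Both bars together, pairs with 4OHT replicate 1 reach 218 to 364 probe sets, and the pairs of untreated arrays with 4OHT replicate 2 reach 83 and 94.

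No probe set passed the test: limma called 0 of 21789 (0%) at an adjusted p under 0.05, and the smallest adjusted p was 0.966. An unadjusted p under 0.05 was found at 1076 probe sets (4.94%), 551 higher and 525 lower with 4OHT, where 1089 are expected if no gene differs. Genes with several probe sets were then represented by the brightest, which left 19938 genes. The unadjusted threshold was passed by 481 genes with lower signal (2.41%) and 505 with higher signal (2.53%). Among the 9686 probe sets with a mean above 5, 9603 (99.1%) had a 95% interval inside 2-fold in either direction, and 78.6% had one inside 1.5-fold. That second share was 42.8% without untreated replicate 1, 45.4% without untreated replicate 2 and 46.7% without 4OHT replicate 2. A difference of at least 2-fold was measured at 1 such probe set in each direction, Abca1 higher and Snora20 lower. Without 4OHT replicate 1 the difference of Snora20 was -0.56, so that array decided its place. Snora20 also passed the level of 5 only through its untreated arrays. Its means were 5.67 untreated, 4.55 with 4OHT and 4.89 with Shld1. At 1.5-fold there were 7 higher and 42 lower.

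Differences leaned downward for well-measured genes. Of the 8729 genes with a mean above 5, 5879 were lower with 4OHT (67.4%), with a median difference of -0.06 on the log2 scale. Both 4OHT arrays lay below both untreated arrays at 2620 (30.0%) and above at 907 (10.4%). An unadjusted p under 0.05 came with lower signal at 288 (3.30%) and with higher signal at 75 (0.859%). The lean depended on signal level: the median difference was 0.06 at means of 3 to 5, -0.06 at 5 to 7, -0.07 at 7 to 9, and 0.01 above 11. It was seen mainly on 1 array. Relative to the untreated mean, the median deviation at levels of 7 to 9 was -0.14 on 4OHT replicate 1 and -0.01 on replicate 2. After quantile normalization the share of probe sets above 5 that were lower was 56.0%, and without 4OHT replicate 1 it was 52.7%, against 66.3% as deposited. Counts of lower genes in the lists below are therefore read against 67.4%, not against an even split.

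**Figure D2:**
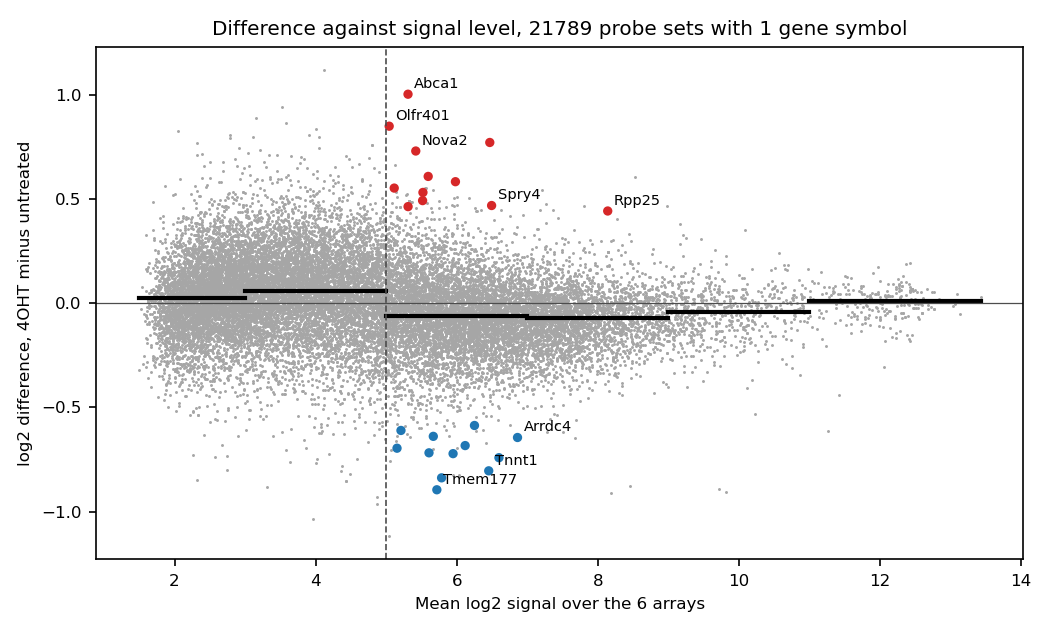
Difference between 4OHT and untreated (log2, vertical axis) against mean log2 signal over the 6 arrays (horizontal axis) for 21789 probe sets, 1 grey point each. Black bars are medians within level ranges, the dashed line marks the level of 5, and coloured points are the 12 probe sets above it with the highest (red) and the 12 with the lowest (blue) moderated statistic. The medians are above 0 left of the dashed line and below 0 from 5 to 11.

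Near the level of 5, the probe sets just above were Trib1, at 4.89 and 4.88 untreated and 5.04 and 4.91 with 4OHT, and P3h4, at 5.27 and 4.87 and then 4.57 and 5.02. Just below were Patl2, at 4.85 and 4.88 untreated and 5.27 and 5.09 with 4OHT, and Rnf122, at 4.98 and 4.89 and then 4.74 and 5.09. The level is a limit on reading, not a border between expressed and silent genes.

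Abca1 had the smallest p of all probe sets. It encodes the transporter that loads cellular cholesterol onto apolipoprotein A-I, and its transcription is known to be driven by the oxysterol receptor LXR. Its signal was 4.87 and 4.96 on the untreated arrays, 5.81 and 6.03 on the 4OHT arrays and 5.16 and 5.02 on the Shld1 arrays. Both 4OHT arrays were thus above all 4 others. The log2 difference from untreated was 1.00 (SE 0.15, 95% interval 0.67 to 1.33), a 2.01-fold higher signal, and in limma the unadjusted p of 7.117e-05 became 0.966 once adjusted. It ran from 0.90 to 1.11 over 15 alternative settings. The 250 bases before the gene's start are shown because the gene led the comparison. They are from RefSeq on GRCm38.p6, chr4:53159896-53160145, minus strand, with the capitals marking the only CACGTG (the E-box bound by basic helix-loop-helix factors), which starts 147 bases upstream.
Abca1: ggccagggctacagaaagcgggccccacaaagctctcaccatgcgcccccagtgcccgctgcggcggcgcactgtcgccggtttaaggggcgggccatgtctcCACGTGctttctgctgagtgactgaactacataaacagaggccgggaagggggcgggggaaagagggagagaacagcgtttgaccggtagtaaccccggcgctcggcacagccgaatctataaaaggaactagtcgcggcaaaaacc

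The other genes of the LXR list differed by less than Abca1 and in both directions. Of 14 measured, 7 had a mean above 5, and of these 5 were higher and 2 lower with 4OHT, with a median of 0.18 against -0.06 over all genes above 5. Lpcat3, which inserts polyunsaturated chains into phospholipids, went the other way from Abca1, with 7.12 and 7.15 untreated and 6.60 and 6.67 with 4OHT (difference -0.50, SE 0.16). Srebf1, the regulator of fatty acid synthesis, read 6.01 and 6.24 untreated and 6.37 and 6.30 with 4OHT, a difference of 0.21 (SE 0.16). Its 4OHT arrays were both above the untreated ones, but the interval of the difference holds 0. The repeat GGTCA, any 4 bases, GGTCA, which LXR binds, was searched on both strands from 250 bases before to 50 after each start and was found in 15 of 32851 RefSeq promoters (0.0457%). It was at 2 of the 7095 genes above 5 with a promoter. None of the 10 LXR list genes with a searched promoter held it. Only these exact letters were searched, and with so few matches anywhere their absence says nothing of LXR at these genes.

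The other 11 of the 12 probe sets above 5 with the highest statistic all had both 4OHT arrays above both untreated arrays. Olfr401, an olfactory receptor gene, read 4.76 and 4.61 untreated and 5.62 and 5.45 with 4OHT, a difference of 0.85 (SE 0.15). Nova2, a neuronal splicing regulator, read 5.01 and 4.92 untreated, 5.71 and 5.68 with 4OHT and 5.79 and 5.41 on the Shld1 arrays. Of the Shld1 arrays, which share the untreated controls, the first was thus as high as the 4OHT arrays. The second lay between the 4OHT and the untreated arrays. Msc, the repressor musculin, read 5.69 and 5.76 untreated and 6.25 and 6.36 with 4OHT (0.58, SE 0.14). Rpp25, a protein subunit of ribonuclease P, read 7.96 and 7.99 untreated and 8.45 and 8.39 with 4OHT, and was the brightest of the 12. Its difference of 0.44 (SE 0.13) was several times the gap between replicates in either group. Tnfrsf21 (death receptor 6), Zbtb38 (a zinc finger protein that binds methylated DNA) and Ahnak (a large scaffold protein) differed by 0.46, 0.55 and 0.49. Krtap5-1, a hair keratin-associated gene, was among the largest differences at 0.66, but its 4OHT arrays, at 5.91 and 5.18, had an SD of 0.52. Olfr401, Zbtb38 and Krtap5-1 passed the level of 5 only through their 4OHT arrays. Their untreated means were 4.69, 4.85 and 4.88, and their Shld1 means 4.90, 5.09 and 4.93.

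Spry4 and Myc were also among the 12, and both belong to a list of 20 FGF and ERK targets. Fibroblast growth factor signals through ERK and primes embryonic stem cells for differentiation, and Sprouty proteins are feedback inhibitors of that pathway. Spry4 read 6.42 and 6.30 untreated, 6.77 and 6.89 with 4OHT and 6.31 and 6.28 with Shld1, a difference of 0.47 (SE 0.14). Myc read 5.08 and 5.39 untreated and 5.86 and 5.68 with 4OHT (0.53, SE 0.16). Etv1, an ETS factor downstream of ERK, read 6.59 and 6.50 untreated and 6.88 and 7.10 with 4OHT (0.45, SE 0.14), and its second probe set differed by 0.41. The list as a whole did not lean. Of its 13 members above 5, 7 were higher and 6 lower, with a median of 0.09, which is -0.07 over all 20. The ligand gene Fgf4 was on the low side, at 8.98 and 8.98 untreated and 8.46 and 8.63 with 4OHT. Among the members above 5, 3 had an unadjusted p under 0.05 with higher signal (0.859% of all genes above 5) and 2 with lower signal (3.30% of all), none past the adjustment.

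MicroRNA precursor genes supplied members of the 12, and those above 5 were mostly higher with 4OHT. MicroRNAs pair with messenger RNAs through their seed, bases 2 to 8, and lower the output of those messages. The probe sets read the precursor gene, and the mature arms below are printed to show what Mir708 and Mir139, the microRNA genes among the 12, would give rise to. Seeds are in capitals, and sequences and positions are from RefSeq, GRCm38.p6, plus strand of chr7, at chr7:96249450-96249472 (miR-708-5p), chr7:96249496-96249517 (miR-708-3p), chr7:101475382-101475403 (miR-139-5p) and chr7:101475418-101475439 (miR-139-3p). The 4 seeds all differ.
miR-708-5p: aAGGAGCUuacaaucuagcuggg
miR-708-3p: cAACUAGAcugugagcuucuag
miR-139-5p: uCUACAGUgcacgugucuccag
miR-139-3p: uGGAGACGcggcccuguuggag

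Mir708 read 6.16 and 6.14 untreated and 6.61 and 7.23 with 4OHT, a difference of 0.77 (SE 0.23). Mir139 read 5.37 and 5.24 untreated and 6.17 and 5.67 with 4OHT, a difference of 0.61 (SE 0.19). At both genes the groups were apart, but the 4OHT arrays were far from each other, with an SD of 0.44 for Mir708 and 0.35 for Mir139. Of the 38 microRNA precursors above 5, 30 were higher with 4OHT and 8 lower, with a median of 0.22, against 2850 of 8729 genes higher and a median of -0.06 overall. Over all 300 measured precursors, most of them dim, 169 were higher and 131 lower, with a median of 0.03, and of -0.003 without 4OHT replicate 1. A mean above 5 can be reached through the 4OHT arrays alone, so the 38 are not a neutral sample of the 300. Both 4OHT arrays were above both untreated arrays at 14 of the 38 (10.4% of all genes above 5) and below at 3 (30.0% of all). The mean deviation of these 38 from untreated was 0.29 on 4OHT replicate 1 and 0.09 on replicate 2, and -0.05 and 0.08 on the Shld1 arrays. The array with the narrower range was thus the higher of the pair, and the part of that range in the result was not tested. An unadjusted p under 0.05 with higher signal was found at 5 of the 38 (0.859% of all genes above 5), named here after their values were seen: Mir708, Mir139, Mir194-1, Mir692-1 and Mir341. Mir692-1, the brightest of them, read 8.18 and 8.26 untreated and 9.18 and 8.47 with 4OHT. Mir194-1 read 4.54 and 4.75 untreated, 5.13 and 5.04 with 4OHT and 5.46 and 5.52 with Shld1. Its highest values were on the Shld1 arrays. Its name and that of Mir692-1 mark genes with further copies, whose transcripts a probe set may not separate. Mir17, Mir18 and Mir363, also chosen after their values were seen, come from paralogous microRNA clusters and differed by -0.29, -0.36 and -0.45.

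**Figure D3:**
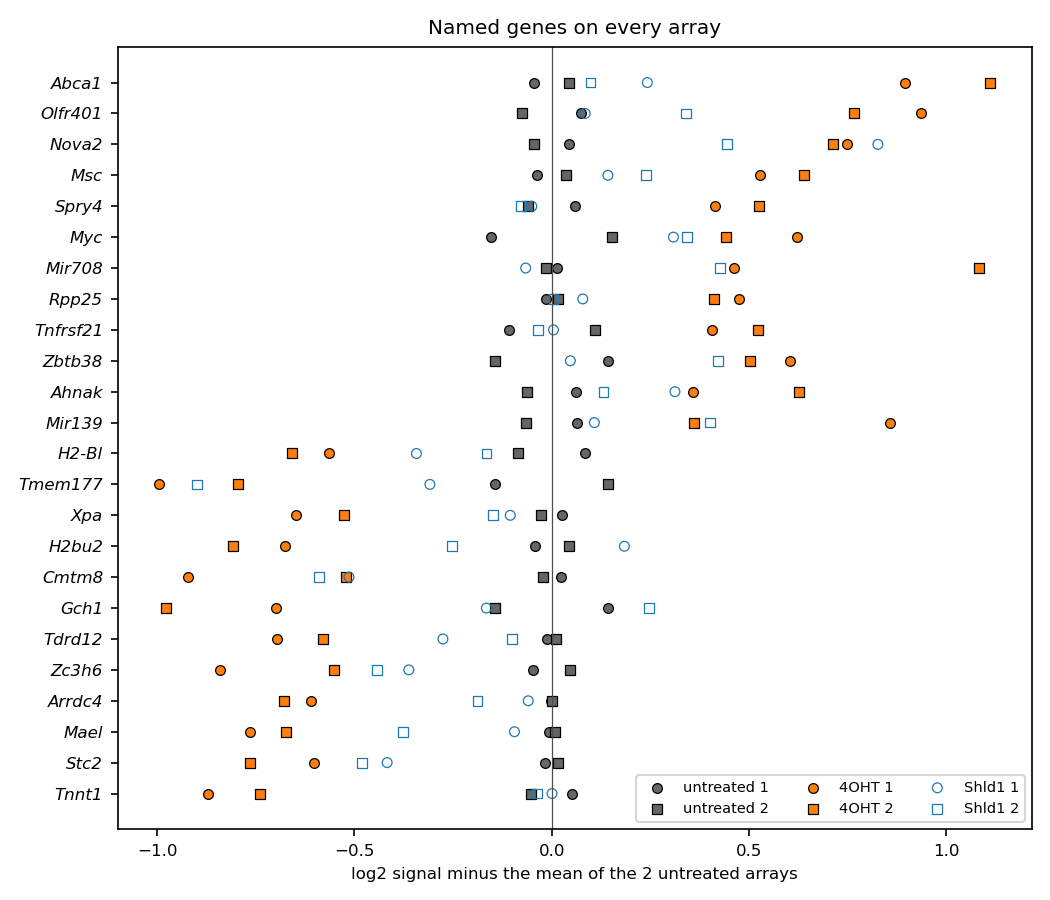
Log2 signal of the 24 probe sets with the highest and lowest moderated statistic among those above a mean of 5, on every array, minus the mean of the 2 untreated arrays (horizontal axis). Grey marks are untreated, orange 4OHT and open blue Shld1, with circles for replicate 1 and squares for replicate 2. Orange marks lie outside the grey pair at all 24 genes, which the choice by statistic favours. The open marks lie near 0 for Tnnt1 and Spry4 and on the side of the orange marks for Nova2 and Cmtm8.

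Tnnt1, the troponin T of slow skeletal muscle, had the lowest statistic. It read 6.78 and 6.68 on the untreated arrays, 5.86 and 5.99 on the 4OHT arrays and 6.73 and 6.69 on the Shld1 arrays. The 4OHT arrays stood apart from all 4 others, with a difference of -0.80 (SE 0.14, 95% interval -1.11 to -0.49), a 1.75-fold lower signal with an unadjusted p of 0.0002317 and, as for every gene named, an adjusted p of 0.966 or more in limma. Stc2, a secreted glycoprotein that is an estrogen-responsive gene in breast cells, read 6.48 and 6.51 untreated, 5.89 and 5.73 with 4OHT and 6.08 and 6.02 with Shld1. The 4OHT arrays were lowest and the Shld1 arrays were also below untreated. The difference for 4OHT was -0.68 (SE 0.14). Gch1, the first enzyme of tetrahydrobiopterin synthesis, read 6.19 and 5.91 untreated, 5.35 and 5.07 with 4OHT and 5.89 and 6.30 with Shld1. Here the Shld1 arrays overlapped the untreated ones, and the 4OHT difference was -0.84 (SE 0.19). Tmem177, a mitochondrial protein of cytochrome oxidase assembly, differed by -0.90 (SE 0.21), with 6.08 and 6.36 untreated and 5.22 and 5.42 with 4OHT. Its second Shld1 array, at 5.32, was as low as the 4OHT arrays.

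Arrdc4 was lower with 4OHT with close replicates in both groups. It encodes an alpha-arrestin known to be induced by glucose through Mondo family factors, which bind E-boxes. It read 7.12 and 7.12 untreated, 6.51 and 6.44 with 4OHT and 7.06 and 6.93 with Shld1. The difference was -0.64 (SE 0.14), and the 4OHT arrays were below all 4 others. Its promoter is shown for the CACGTG in capitals, 193 bases before the start, in RefSeq sequence of GRCm38.p6, chr7:68749239-68749488, minus strand. The motif is in 7.15% of all promoters searched, and in a promoter of 12.7% of the genes above 5 that have one.
Arrdc4: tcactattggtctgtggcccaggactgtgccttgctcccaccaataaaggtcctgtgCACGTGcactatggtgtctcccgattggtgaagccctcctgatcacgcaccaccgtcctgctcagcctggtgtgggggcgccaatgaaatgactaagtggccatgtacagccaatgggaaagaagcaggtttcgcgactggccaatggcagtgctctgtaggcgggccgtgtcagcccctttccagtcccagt

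Genes of the germ line formed a small group on the low side. Mael and Tdrd12, both needed for piRNA-guided silencing of transposons in germ cells, read 5.92 and 5.93 and 5.93 and 5.96 untreated. With 4OHT Mael read 5.16 and 5.25 and Tdrd12 5.25 and 5.36. These were differences of -0.72 (SE 0.15) and -0.64 (SE 0.14), and neither gene's groups overlapped. In the list of 7 germ cell markers, which does not hold Tdrd12, 5 had a mean above 5. All 5 were lower, with a median of -0.42, where 67.4% of all genes above 5 were lower with a median of -0.06. Both 4OHT arrays were below both untreated arrays at 4 of the 5 (30.0% of all genes above 5). Over the whole list 7 were lower as deposited and 5 without 4OHT replicate 1. The meiosis gene Stra8 read 7.30 and 7.32 untreated, 6.84 and 6.95 with 4OHT and 6.92 and 7.07 with Shld1. Dazl, an RNA-binding protein of germ cells, read 5.59 and 5.96 untreated and 5.26 and 5.34 with 4OHT. The mean deviation of the 5 genes from untreated was -0.45 and -0.38 on the 4OHT arrays and -0.13 and -0.24 on the Shld1 arrays. In bulk RNA, fewer cells of a type and less RNA per cell cannot be told apart.

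The remaining genes of the 12 on the low side have varied known roles. Zc3h6, a zinc finger gene, read 5.47 and 5.57 untreated and 4.68 and 4.97 with 4OHT, and its second probe set had a mean below 5. The first probe set had means of 5.52 untreated, 4.82 with 4OHT and 5.12 with Shld1, so its untreated arrays helped it pass 5. Xpa, a DNA damage factor of nucleotide excision repair, read 6.52 and 6.46 untreated and 5.84 and 5.96 with 4OHT. Cmtm8 read 6.40 and 6.35 untreated, 5.45 and 5.85 with 4OHT and 5.86 and 5.78 with Shld1, so that both drugs' arrays were below the untreated ones. H2bu2, a histone H2B gene, and H2-Bl, annotated as a transcribed pseudogene of the class I histocompatibility family, differed by -0.74 and -0.61.

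Genes of cholesterol synthesis and uptake were lower on both 4OHT arrays as a group. These genes are transcribed under SREBP2, which is active when cellular sterol is low. All 21 measured members had a mean above 5, and 20 were lower with 4OHT, with a median of -0.30, where 67.4% of all genes above 5 were lower with a median of -0.06. Both 4OHT arrays were below both untreated arrays at 19 of the 21 (30.0% of all genes above 5), and 9 had an unadjusted p under 0.05 with lower signal (3.30% of all). None passed the adjustment. The mean deviation from untreated was -0.36 on 4OHT replicate 1 and -0.21 on replicate 2, and 0.01 and -0.13 on the Shld1 arrays. Removing replicate 1 left the median at -0.25 and quantile normalization gave -0.25. Idi1, which isomerises isopentenyl diphosphate, read 7.60 and 7.75 untreated and 7.08 and 7.29 with 4OHT, and its second probe set gave nearly the same difference (-0.49 and -0.49). Hsd17b7, a late step, read 6.22 and 6.13 untreated and 5.61 and 5.80 with 4OHT. Fdps, farnesyl diphosphate synthase, read 7.81 and 7.92 untreated and 7.33 and 7.58 with 4OHT. The groups did not overlap at any of these 3, which were named for their statistic, a choice that favours this. The only member on the high side was Ebp.

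Ebp encodes the sterol isomerase that tamoxifen is known to bind, and Dhcr7, another sterol enzyme, forms the antiestrogen binding site with it. Ebp read 5.18 and 4.95 untreated, 5.33 and 5.22 with 4OHT and 5.57 and 5.26 with Shld1. Its 4OHT arrays were above untreated by 0.21 (SE 0.16), an interval of -0.16 to 0.57 that holds 0. Dhcr7 read 6.87 and 6.94 untreated, 6.44 and 6.67 with 4OHT and 6.94 and 6.86 with Shld1, a difference of -0.35 (SE 0.14). The sigma receptor gene Tmem97 and Pgrmc1, a membrane protein that binds heme, differed by -0.21 and -0.26. Fatty acid synthesis genes, which share the SREBP family, did not lean as the cholesterol list did: 6 of 12 above 5 were lower, with a median of -0.01 and, over all 13, of 0.01. Scd2, a desaturase, read 8.30 and 8.37 untreated and 8.64 and 8.70 with 4OHT, while Fads2, another desaturase, read 7.15 and 7.31 and then 6.89 and 6.92. A form of the sterol regulatory element, TCACNCCAC, was in 1.24% of all promoters on either strand. Counted by gene, it was at 1.32% of the genes above 5 with a promoter. Hmgcs1 was the 1 gene of the 17 cholesterol genes searched that held it.

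**Figure D4:**
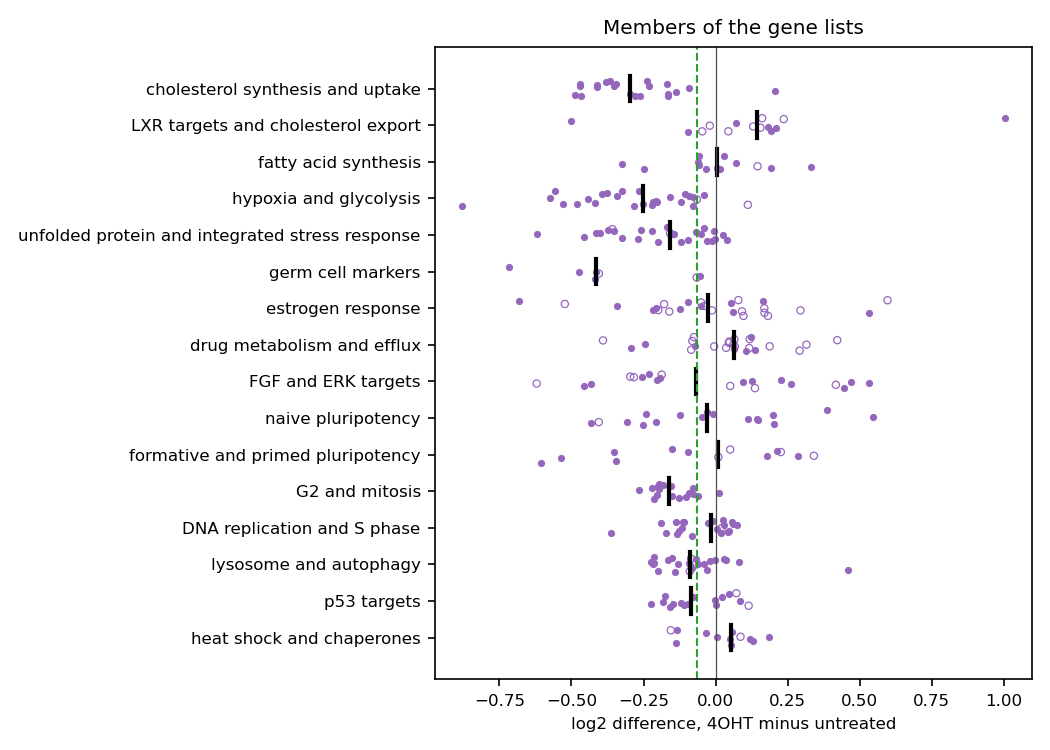
Log2 difference between 4OHT and untreated (horizontal axis) for each measured member of 16 gene lists, 1 point a gene. Filled points have a mean signal above 5 and open points do not, black bars are list medians over all measured members, and the dashed green line is the median of -0.06 over all genes above 5. Of the 21 cholesterol genes 20 lie left of 0, while Abca1 lies alone at 1.00 in the LXR list.

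Hypoxia and glycolysis genes were on the low side in a way that differed between the 4OHT arrays. These are targets of HIF, which binds a core of ACGTG when oxygen is scarce. All 25 members above 5 were lower with 4OHT, with a median of -0.27, and both 4OHT arrays were below both untreated arrays at 19 (30.0% of all genes above 5). An unadjusted p under 0.05 was found at 6 (3.30% of all with lower signal). The mean deviation was -0.47 on 4OHT replicate 1 but -0.14 on replicate 2, and -0.16 and -0.20 on the Shld1 arrays. Over all 27 measured members the median was -0.25, and -0.12 without 4OHT replicate 1. Most of the shift was on that array. Bnip3, a receptor for the removal of mitochondria, read 8.86 and 8.80 untreated, 7.53 and 8.38 with 4OHT and 8.36 and 8.82 with Shld1. The 4OHT arrays had an SD of 0.60, and the difference was -0.88 (SE 0.26). Its second probe set gave -0.91. Ddit4, an inhibitor of the growth kinase complex mTORC1, was steadier, with 7.59 and 7.55 untreated, 6.98 and 7.10 with 4OHT and 7.54 and 7.51 with Shld1. Its 4OHT arrays were below all 4 others, with a difference of -0.53 (SE 0.13). Ndrg1 read 5.66 and 5.48 untreated and 4.95 and 5.22 with 4OHT.

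The promoters of Bnip3 and Ddit4 are shown because they had the widest and the tightest values of the hypoxia genes named. Capitals mark ACGTG on either strand. In Bnip3 (RefSeq, GRCm38.p6, chr7:138909507-138909756, minus strand) the match on one strand and the match on the other overlap and together spell CACGTG, starting 108 and 107 bases before the start. In Ddit4 (chr10:59951771-59952020, minus strand) the match starts 187 bases before it.
Bnip3: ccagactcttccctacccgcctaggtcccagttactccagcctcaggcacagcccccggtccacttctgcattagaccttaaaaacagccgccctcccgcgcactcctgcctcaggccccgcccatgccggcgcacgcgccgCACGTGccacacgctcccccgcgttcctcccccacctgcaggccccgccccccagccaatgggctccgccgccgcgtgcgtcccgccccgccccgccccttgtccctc
Ddit4: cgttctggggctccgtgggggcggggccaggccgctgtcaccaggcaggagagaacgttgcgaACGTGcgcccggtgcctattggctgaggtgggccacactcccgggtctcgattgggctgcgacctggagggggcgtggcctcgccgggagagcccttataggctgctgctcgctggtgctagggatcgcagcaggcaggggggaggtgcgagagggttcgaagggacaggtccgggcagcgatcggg

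ACGTG was in 19.6% of all promoters. Counted by gene, where any promoter of the gene may hold it, it was at 31.2% of the genes above 5 with a promoter. By the same count it was at 19 of the 24 hypoxia genes searched (79.2%). Of the 2214 genes above 5 that held ACGTG, 69.2% were lower with 4OHT, against 67.9% of the 7095 genes above 5 with a promoter. Every CACGTG also holds an ACGTG on each strand.

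Genes of the unfolded protein and integrated stress response were lower by less, and by similar amounts on both 4OHT arrays. In this response the factor ATF4 raises amino acid synthesis genes and the factor CHOP (Ddit3). Of 25 members above 5, 23 were lower, with a median of -0.15, and both 4OHT arrays were below both untreated arrays at 11, where 30.0% of all genes above 5 were. An unadjusted p under 0.05 was found at 4 (3.30% of all with lower signal). Over all 27 measured members, 25 were lower as deposited. After quantile normalization 19 were lower, and without 4OHT replicate 1 also 19. Of all probe sets above 5, 56.0% and 52.7% were lower under these 2 settings. The mean deviation was -0.22 and -0.15 on the 4OHT arrays, and 0.02 and -0.19 on the Shld1 arrays, so that 1 Shld1 array was as low. Ddit3 read 7.51 and 7.67 untreated and 6.86 and 7.09 with 4OHT (-0.62, SE 0.16). Psat1, an enzyme of serine synthesis, read 9.61 and 9.69 untreated and 9.27 and 9.28 with 4OHT (-0.37, SE 0.13). Chac1, which degrades glutathione, read 8.12 and 8.05 untreated and 7.74 and 7.52 with 4OHT (-0.46, SE 0.16). None of these 3 overlapped, but they were named for their statistic, a choice that favours this. The Chac1 promoter is shown for the ATF4 motif TGATGNAA, which lies in it on the reverse strand (capitals, first base 193 bases before the start; RefSeq, GRCm38.p6, chr2:119350992-119351241, plus strand). The motif was in 3.97% of all promoters. Counted by gene, it was at 2.45% of the genes above 5 with a promoter and at 8 of the 27 genes of this list.
Chac1: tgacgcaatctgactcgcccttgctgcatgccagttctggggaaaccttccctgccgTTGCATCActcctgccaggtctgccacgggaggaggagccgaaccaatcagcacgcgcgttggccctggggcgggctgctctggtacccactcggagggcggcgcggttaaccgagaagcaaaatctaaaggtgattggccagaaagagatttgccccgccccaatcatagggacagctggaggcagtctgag

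Small nucleolar RNAs, which guide chemical marks on ribosomal and other RNAs, included the largest differences on the low side. Snora20 read 5.76 and 5.58 untreated, 4.00 and 5.11 with 4OHT and 5.28 and 4.49 with Shld1, a difference of -1.12 (SE 0.35). Rnu3a, the U3 RNA of ribosomal RNA processing, read 10.29 and 10.25 untreated, 9.02 and 9.71 with 4OHT and 10.21 and 9.44 with Shld1. Snord49b read 10.35 and 9.72 untreated, 9.04 and 9.25 with 4OHT and 10.12 and 9.84 with Shld1. At Snora20 and Rnu3a the array of narrower range was the lower of each drug's pair, and the part of that range in the result was not tested. Of 37 small nucleolar RNAs above 5, 30 were lower, with a median of -0.21 and mean deviations of -0.32 and -0.14 on the 4OHT arrays and 0.12 and -0.44 on the Shld1 arrays. Over all 51 measured, the median went from -0.21 to -0.35 without 4OHT replicate 2. Messages for cytosolic ribosomal proteins split evenly, with 29 of 56 above 5 lower, 27 higher and a median that rounds to 0.00.

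In several other gene classes the median depended on 1 array. Of 43 genes named Nduf, most of which encode subunits of respiratory complex I, 36 were lower, with a median of -0.12, and -0.05 without 4OHT replicate 1. Of 21 histone genes above 5, 16 were lower, with a median of -0.16. Here replicate 2 was the lower array, with mean deviations of -0.07 and -0.24. Over all 32 histone genes the median was -0.14, and -0.03 without replicate 2. Among G2 and mitosis genes, 18 of 19 were lower with a median of -0.16, none with an unadjusted p under 0.05, and the median was -0.07 without replicate 1. Both 4OHT arrays were below both untreated arrays at 12 of these 19 and above at 0. The counts were 20 and 2 of the 43 Nduf genes, and 10 and 0 of the 21 histone genes. Over all genes above 5 the shares were 30.0% below and 10.4% above. Aurkb, a mitotic kinase, read 8.03 and 8.26 untreated and 7.72 and 8.04 with 4OHT, and its groups overlapped. The DNA replication list had 12 of 21 lower, with a median of -0.03, and turned to the high side without replicate 1 (0.06 over all 22).

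**Figure D5:**
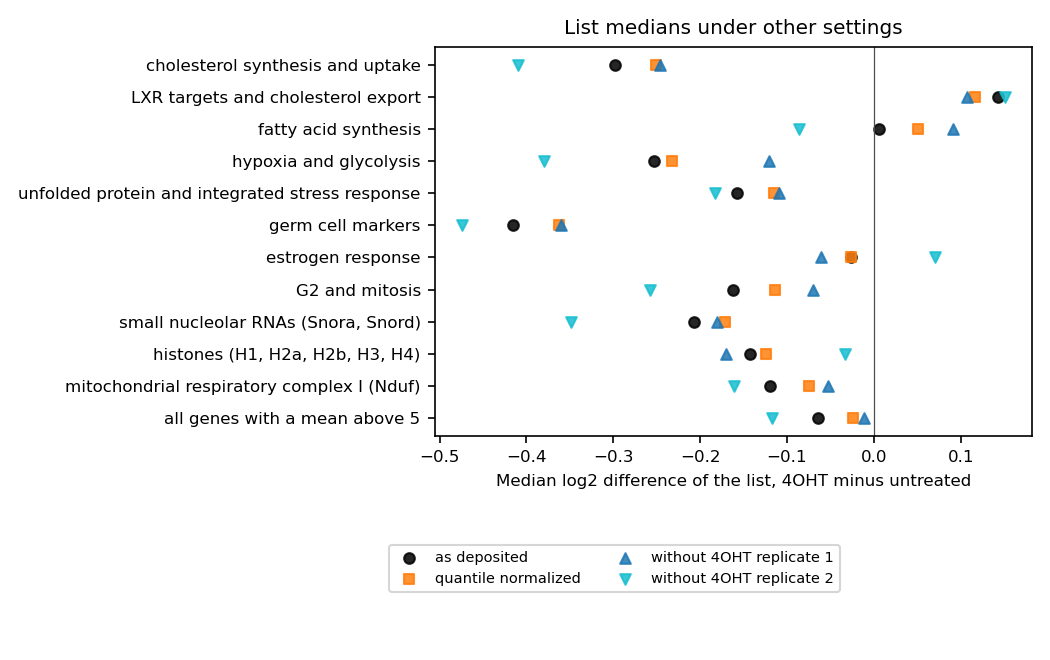
Median log2 difference between 4OHT and untreated over the measured members of 11 lists, and over all genes above 5, as deposited (black), after quantile normalization (orange), without 4OHT replicate 1 (dark blue) and without 4OHT replicate 2 (light blue). The cholesterol median stays between -0.41 and -0.25, while that of hypoxia and glycolysis runs from -0.38 to -0.12 and that of G2 and mitosis from -0.26 to -0.07.

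Genes of the naive and the formative state of pluripotency did not lean as lists, but a few members stood out. The naive list had 9 of 16 above 5 lower, with a median of -0.02. Over all 17 the median was -0.03 as deposited and 0.01 after quantile normalization. Gbx2, a homeobox gene that supports self-renewal, read 5.30 and 5.50 untreated, 5.81 and 6.08 with 4OHT and 5.49 and 5.82 with Shld1 (0.55, SE 0.17). Tcl1, a coactivator of AKT, read 7.09 and 7.19 untreated and 7.55 and 7.50 with 4OHT. In the formative list, 6 of 9 above 5 were lower, with a median of -0.15, but the median over all 13 was 0.01. Otx2, which drives the exit from the naive state, read 7.67 and 7.61 untreated, 6.93 and 7.28 with 4OHT and 7.53 and 7.52 with Shld1 (-0.54, SE 0.16). Lef1, a nuclear partner of beta-catenin, read 6.62 and 6.76 untreated, 5.88 and 6.28 with 4OHT and 6.34 and 6.39 with Shld1 (-0.61, SE 0.16). The DNA methyltransferase Dnmt3a read 7.28 and 7.40 untreated and 6.85 and 7.13 with 4OHT. In each of these 3, both 4OHT arrays were below both untreated arrays and replicate 1 was the lower. They were named for their statistic, which favours such separation, and 30.0% of all genes above 5 had both 4OHT arrays below.

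Of the receptor genes, Esr1, Esr2 and Gper1 were dim. Esr1 read 4.01 and 3.98 untreated and 3.88 and 4.10 with 4OHT, Esr2 3.27 and 3.25 and then 3.80 and 3.39, and the membrane receptor Gper1 4.37 and 4.43 and then 4.58 and 4.71. All 3 were below the mean of 5, and a mouse Esr1 probe set need not read a human ERT2 domain. Esrrb, an orphan relative that belongs to the stem cell network, was bright, at 9.07 and 9.12 untreated and 9.03 and 9.11 with 4OHT. Of 8 receptor and coregulator genes above 5, 6 were lower, with a median of -0.04. Genes known to respond to estrogen in other tissues went both ways: 7 of 11 above 5 were lower, with a median of -0.09, of -0.03 over all 26 and of 0.07 over these without 4OHT replicate 2, and Stc2 was on the low side while Myc was on the high side. Elovl2, an elongase of fatty acids, read 5.12 and 5.04 untreated and 4.68 and 4.80 with 4OHT (-0.34, SE 0.22). The estrogen response element GGTCA, any 3 bases, TGACC was found in 23 of 32851 promoters (0.0700%), and in none of the genes above 5 with a searched promoter. In these short windows the letters therefore say nothing of the receptor.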

How the data were processed

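RNA was profiled on 6 arrays, 2 a group. The deposited values were log2 signals, 1 per probe set and array, read as log2 from their range; the authors' background correction, summarization and normalization are not given in the sources used here, and the submitters' processing notes name limma 3.14 without a role. Depth does not apply, and 2 arrays a group limit the precision: the median SE was 0.151 above a mean of 5. Groups came from the labels. Values were fitted as deposited with limma 3.58.1 in R 4.3.3 (a mean per group over 6 arrays, empirical Bayes, two-sided, Benjamini-Hochberg over 21789 probe sets). Residual degrees of freedom were 3, plus 6.04 from the moderation. An exact permutation test of 2 against 2 cannot go below p = 0.333, so none was used. Steps were tested on simulated data.

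Gene symbols came from GEO's annotation of the platform; 1621 had several symbols and 12146 none, and 21698 of the 21789 matched a current gene record. Members, the 27 gene lists and the classes set by symbol were chosen with earlier results of these data known. Named genes were, above a mean of 5, the 12 highest and 12 lowest statistics, the 6 largest differences each way, 3 members a list by statistic, and a fixed set of receptor, stem cell and sterol genes. Other names were chosen after their values were seen, as was the setting that leaves out both arrays of narrower range and cyclic loess. Promoters (250 bases before to 50 after a start) were matched by gene identifier for 15563 of 19938 genes.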

Additional observations from a re-analysis of the deposited data

How the results depend on the processing

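limma called 0 probe sets under all 15 alternatives, and 0 members of the gene lists. The smallest adjusted p over alternatives, for Abca1, was 0.3136, when only probe sets with a mean above 5 were fitted. The count with an unadjusted p under 0.05 was 577 there, since fewer probe sets were tested, against 1076 as reported. Leaving out 1 array at a time gave 571 to 1769, highest without 4OHT replicate 2 and lowest without untreated replicate 2 (577 without 4OHT replicate 1 and 615 without untreated replicate 1), where the lone array of a group was assumed to vary like the others. The share of probe sets above 5 with an interval within 1.5-fold was then 42.8% to 63.5%. The other settings gave 852 to 1566 probe sets. A replicate block by number gave 852 probe sets and a share of 74.9%. The numbers were not treated as pairs (correlation of same-numbered deviations 0.0522 with 2 pairs), and the block made no call. Quantile normalization turned the split of these probe sets from 551 higher and 525 lower to 513 and 685, and centring on the 75th percentile to 631 and 323.

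The 24 genes chosen by their statistic and the 12 by size kept their sign in the 15 alternatives, which says nothing of stability, since the choice put both 4OHT arrays on one side. Of all 107 named probe sets 92 kept their sign, and of 32 lists and classes 15 did by their median. The 15 probe sets that changed sign all had small differences, and the cause was not tested. After quantile normalization these were Dab2 at 0.0375, Sox1 at 0.0022 and Zfp42 at 0.0282. With arrays centred on the 75th percentile they were Dab2 at 0.0254, Sox1 at 0.0238, Esr1 at 0.0414, Esrrb at 0.0143, Nanog at 0.0222, Zfp42 at 0.0354 and Rnf122 at 0.0246. With cyclic loess they were Dab2 at 0.0477, Esrrb at 0.0187, Nanog at 0.0003 and Zfp42 at 0.0452. With both arrays of narrower range left out they were Ncoa1 at 0.0728, Prim1 at 0.0188, Col1a1 at -0.0431, Dab2 at 0.0329, Krt8 at 0.108, Eif1a at 0.0179, Esr1 at 0.106, Esrrb at 0.0082, Sox2 at -0.002, Nanog at 0.0348, Zfp42 at 0.0982 and Rnf122 at 0.154. Leaving out 1 array at a time gave Col1a1 -0.0431 to 0.328, Dab2 -0.0728 to 0.0329, Eif1a -0.203 to 0.0179, Esr1 -0.114 to 0.106, Esrrb -0.0702 to 0.0082, Gata6 -0.206 to 0.0114, Krt8 -0.35 to 0.151, Nanog -0.0809 to 0.0348, Ncoa1 -0.207 to 0.0728, Pou5f1 -0.0205 to 0.049, Prim1 -0.36 to 0.0188, Rnf122 -0.196 to 0.154, Sox1 -0.188 to 0.145, Sox2 -0.002 to 0.156 and Zfp42 -0.118 to 0.0982.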

Other observations

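Other stress programmes are given beside all genes above 5, of which 67.4% were lower with a median of -0.06. Of 10 heat shock genes above 5, 3 were lower with 4OHT, with a median of 0.05. The small chaperone gene Hspb1 read 10.56 and 10.61 untreated and 10.77 and 10.76 with 4OHT, while Hsph1, a larger chaperone, read 7.30 and 7.29 and then 7.09 and 7.24. Among NRF2 targets, which protect against oxidants, 4 of 10 were lower, with a median of 0.02. The heme-degrading enzyme gene Hmox1 was at -0.18 and thioredoxin, Txn1, at 0.17. Of 14 p53 targets, 10 were lower, with a median of -0.10, and none had an unadjusted p under 0.05. Phlda3, an inhibitor of AKT, read 7.78 and 7.82 untreated and 7.59 and 7.56 with 4OHT, the widest of these by its statistic.

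Genes of drug metabolism and efflux, which handle tamoxifen in liver, were mostly dim, with 7 of 24 above 5, and these had a median of 0.06. The efflux transporter Abcc1 read 6.35 and 6.53 untreated and 6.03 and 6.27 with 4OHT. Lysosome and autophagy genes had 18 of 22 lower, with a median of -0.09, near that of all genes above 5. Their regulator Tfeb went the other way, at 5.13 and 4.97 untreated and 5.43 and 5.60 with 4OHT, a difference of 0.46 (SE 0.18). Of 14 WNT targets, 4 were above 5, with Lef1 lower, Myc higher and Ccnd1 at 0.16. Of 5 measured genes of the state that resembles the two-cell embryo, Eif1a alone lay above 5, at -0.09.

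Of 1027 olfactory receptor genes, 549 were higher with 4OHT and 478 lower, with a median of 0.02. The 4 above 5 differed by 0.07 to 0.85, but Olfr401 reached that level only through its 4OHT arrays, and the groups were apart at Olfr401 alone. Olfr1174 read 5.84 and 6.18 untreated and 6.94 and 6.09 with 4OHT. The small nucleolar RNA Snora62 opposed its class, at 7.16 and 7.41 untreated, 8.04 and 7.62 with 4OHT and 6.66 and 6.39 with Shld1. Ndufa4l2, a hypoxia-responsive relative of a respiratory subunit, read 5.96 and 6.15 untreated, 5.30 and 5.41 with 4OHT and 5.15 and 6.03 with Shld1. These last 3 genes were chosen after their values were seen.

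No group of 2 arrays could be screened for an outlying sample, and the spread of each gene rests on 3 residual degrees of freedom plus the moderation. The absence of calls does not show that 4OHT has no effect. Above a mean of 5 the median half-width of the unadjusted 95% interval was 0.342, and a smaller difference is not resolved. Larger differences also went uncalled after adjustment: Abca1, at 1.00, had an adjusted p of 0.966 in limma. Drug, induction system and any construct came together, the labels state no exposure time, and no vehicle array was analysed here.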
